A study of Mus musculus with 8 samples.

Results

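The 3 Mb of sequence at each end of mouse chromosomes 1 to 19 were compared with the rest of the same chromosomes by DNA methylation level and dispersion in young and old muscle stem cells. Rows of the deposited whole-genome bisulfite table within 3 Mb of a chromosome's smallest position (centromere side) or largest position (telomere side) were gathered in tiles of 10 kb with at least 20 positions. This gave 11124 tiles, 5518 on the centromere side and 5606 on the telomere side, of 236078 in all; the other 224954 tiles are called the middle. A further 157 tiles on the centromere side and 76 on the telomere side held fewer positions and were left out. The tiles kept hold 1529831 CpG cytosine positions, with each strand listed on its own.

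The cells were resting muscle stem cells from limb muscle of C57BL/6 males, sorted as CD45-, CD31-, Sca1- and VCAM+, from 4 young animals (4 months) and 4 old animals (22 months), with 1 animal per library. No transgene or treatment is named in the labels. Each position of the table has 1 level and 1 dispersion (phi) per age and no value per animal, so levels stand without a replicate error and depth per position is unknown. The SD given below is over the 19 chromosomes, which share the same animals: it describes how chromosomes vary and is no replicate error. As a check of the sort, the less methylated gene ends of Pax7 (3.88% in young cells), Myod1 (5.66%), Myf5 (10.9%) and Vcam1 (12.03%) were low, while those of Pecam1 (72.5%, endothelium), Cdh5 (52.0%, endothelium) and Ptprc (67.1%, blood) were methylated; Cd79a (26.1%, B cells) and Ly6a (46.4%, the Sca1 gene) lay between, and Pdgfra (11.6%, fibro-adipogenic cells) was as low as the stem cell genes.

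Mouse autosomes carry the centromere at one end. Its satellite repeats and the telomere repeats themselves are largely missing from the reference assembly, so the first listed position lay between 3000023 and 3100031 on all 19 chromosomes and the windows describe the outermost assembled sequence, not the satellite or telomere arrays. Subtelomeric DNA in mammals is normally methylated by the DNMT3 enzymes, and this methylation is known to restrain recombination between telomeres. Pericentromeric chromatin is a textbook case of silent, methylated heterochromatin. In both places most CpGs are methylated and the promoters of active genes, when rich in CpG, are not.

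Promoters of the genes that lie closest to the ends show both states, and their letters are printed here so that the density of CpGs, in capitals, can be read beside the measured level. They are RefSeq windows of build GRCm38.p6, from 250 bases before to 50 bases after the gene start, of the 2 outermost genes with the lowest and the 1 with the highest young level on each side. Only outermost genes with a window and a level there were ranked, which left out Xkr4, Insr and Sfi1 among others. Ppp2r3d on chromosome 9, at 94.4% in young and 96.1% in old cells, was higher than the telomere genes shown, but its window holds unknown letters.
Scaf8, chr17:3114722-3115021, plus strand: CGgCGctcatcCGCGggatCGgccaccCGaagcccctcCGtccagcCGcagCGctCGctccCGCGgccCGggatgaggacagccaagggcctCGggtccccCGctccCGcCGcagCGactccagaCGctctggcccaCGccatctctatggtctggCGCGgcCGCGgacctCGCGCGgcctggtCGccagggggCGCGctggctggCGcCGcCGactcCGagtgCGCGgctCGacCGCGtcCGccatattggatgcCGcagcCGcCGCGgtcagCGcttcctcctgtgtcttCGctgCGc
Fam171a1, chr2:3118435-3118734, plus strand: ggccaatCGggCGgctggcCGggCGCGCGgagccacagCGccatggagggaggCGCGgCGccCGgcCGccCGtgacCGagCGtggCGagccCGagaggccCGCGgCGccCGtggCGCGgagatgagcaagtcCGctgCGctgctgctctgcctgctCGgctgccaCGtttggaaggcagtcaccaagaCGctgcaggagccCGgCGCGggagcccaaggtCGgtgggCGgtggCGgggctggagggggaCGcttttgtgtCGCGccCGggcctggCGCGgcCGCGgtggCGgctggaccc
9230019H11Rik, chr10:3119591-3119890, plus strand: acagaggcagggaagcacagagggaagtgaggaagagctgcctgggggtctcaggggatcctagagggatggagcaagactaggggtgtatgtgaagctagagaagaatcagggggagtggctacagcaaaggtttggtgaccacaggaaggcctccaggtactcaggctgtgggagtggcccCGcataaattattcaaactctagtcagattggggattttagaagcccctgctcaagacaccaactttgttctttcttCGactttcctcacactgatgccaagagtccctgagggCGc
Rfc3, chr5:151651159-151651458, minus strand: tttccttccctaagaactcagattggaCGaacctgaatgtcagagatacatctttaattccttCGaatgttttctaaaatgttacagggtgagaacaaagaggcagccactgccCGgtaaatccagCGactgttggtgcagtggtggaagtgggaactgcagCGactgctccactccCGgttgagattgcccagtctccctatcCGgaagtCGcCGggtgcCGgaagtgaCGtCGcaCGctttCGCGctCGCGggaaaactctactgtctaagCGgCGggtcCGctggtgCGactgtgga
B230307C23Rik, chr16:97997086-97997385, plus strand: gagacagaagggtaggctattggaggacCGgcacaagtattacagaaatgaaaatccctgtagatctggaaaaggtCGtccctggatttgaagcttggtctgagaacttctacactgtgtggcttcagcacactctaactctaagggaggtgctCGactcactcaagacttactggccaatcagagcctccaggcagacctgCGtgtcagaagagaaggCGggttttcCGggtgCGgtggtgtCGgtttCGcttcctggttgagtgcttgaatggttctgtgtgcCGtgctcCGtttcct
Csf2ra, chr19:61228369-61228668, minus strand: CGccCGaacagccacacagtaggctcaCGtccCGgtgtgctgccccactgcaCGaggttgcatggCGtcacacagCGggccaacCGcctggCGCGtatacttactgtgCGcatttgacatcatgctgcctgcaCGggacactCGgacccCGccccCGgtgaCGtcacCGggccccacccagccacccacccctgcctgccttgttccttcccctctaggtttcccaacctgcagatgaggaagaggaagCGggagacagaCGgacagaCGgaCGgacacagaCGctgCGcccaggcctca

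On the centromere side, Scaf8, which encodes a factor that binds RNA polymerase II, has 47 CpGs in its 300 bases, with a level of 1.86% in young and 1.75% in old cells. The Fam171a1 window, at one of its later starts, has 43 CpGs and levels of 2.08% and 1.90%. 9230019H11Rik has 3 CpGs and had 66.4% (young) and 60.1% (old) over 6 positions. On the telomere side, Rfc3, a subunit of the clamp loader of DNA replication, has 21 CpGs and stood at 2.21% and 2.07%, and B230307C23Rik has 11 CpGs and stood at 2.77% and 3.09%. The window of Csf2ra, the receptor chain for the cytokine GM-CSF, has 23 CpGs, more than that of Rfc3, and its levels were 71.9% (young) and 73.2% (old) over 46 positions. CpG count and level did not always go together among the outermost genes, since windows of few CpGs were also low at Selenop (4 CpGs, 4.22% in young cells), Gm32856 (7 CpGs, 3.95%), Gm21814 (7 CpGs, 6.03%) and Gm20939 (7 CpGs, 6.55%). The inside of Csf2ra was lower than its promoter, with 22.1% and 24.1% over the 615 positions of its span, 103 kb from the last listed position of chromosome 19.

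On average the telomere side was less methylated than the middle of the same chromosomes, and the centromere side was close to it. In young cells the telomere side stood at 64.3% ± 3.22 (SD over 19 chromosomes), the centromere side at 67.4% ± 3.97 and the middle at 67.2% ± 1.08. The telomere side was lower than its own middle on 16 of 19 chromosomes, by a mean of -2.90 percentage points, a mean smaller than the SD between chromosomes (3.22), and the exceptions were chromosomes 5, 6 and 8. The centromere side was higher on 13 and lower on 6 chromosomes, with a mean difference of 0.144 points (SD 3.87), smaller than the spread between chromosomes. Old cells showed the same layout, with 64.9% on the telomere side, 67.9% on the centromere side and 67.8% in the middle, and again 16 of 19 chromosomes were lower on the telomere side. No test over animals was possible for these level differences, since each age has 1 value per position.

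**Figure D1:**
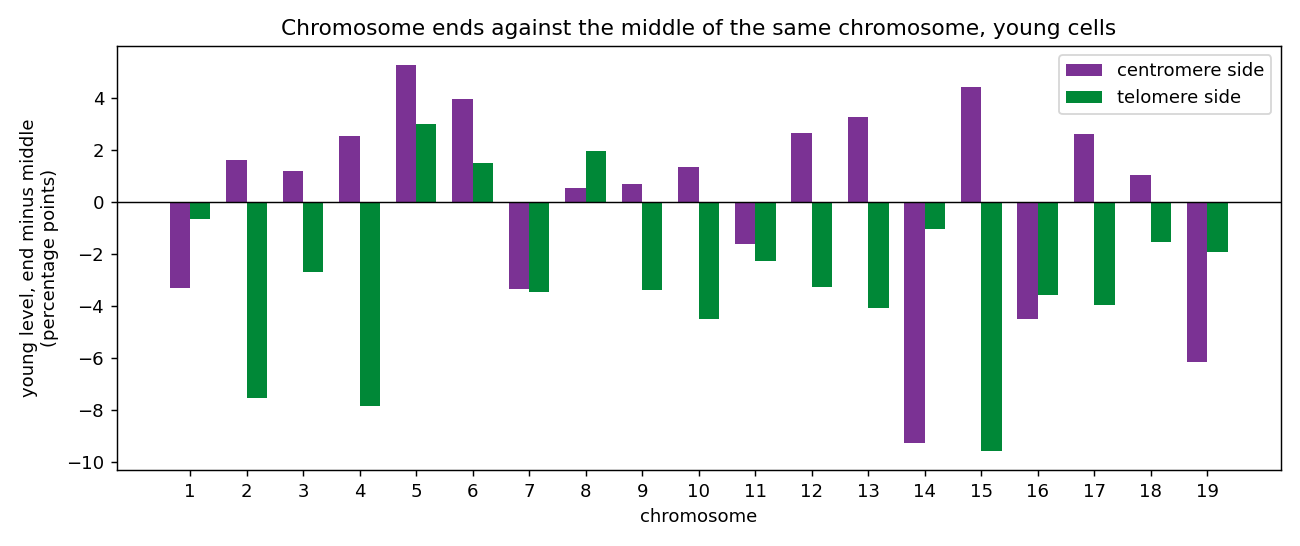
Young level of each end minus the middle of the same chromosome, in percentage points (y axis), for chromosomes 1 to 19 (x axis), 1 bar per side. The telomere side lies below 0 on 16 of 19 chromosomes, down to -9.59 points on chromosome 15. The centromere side lies on both sides of 0, with chromosome 14 at -9.28 points and chromosome 5 at 5.25 points.

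Windows of 3 Mb vary along a chromosome, and the ends stayed inside the range of the middle. Cut into 755 consecutive windows of the same length, the middle had a median young level of 67.5%, quartiles of 65.4% and 69.2% and an SD of 2.93 points. Of the 19 telomere windows, 12 lay under the lower quartile and 1 above the upper quartile. The centromere windows went to both tails, with 6 under the lower and 10 above the upper quartile. None of the 38 end windows lay outside the lowest (55.3%) or highest (75.4%) window of the middle.

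The telomere side had more weakly and fewer highly methylated positions. On average 14.8% of its positions were under 20% in young cells, against 11.9% in the middle and 12.6% on the centromere side, and 31.2% were at 80% or over, against 35.7% and 37.9%. The share under 20% was above that of the middle on 15 of 19 chromosomes at the telomere side and on 8 at the centromere side. Among tiles, 21.3% of those on the telomere side lay between 40% and 60% in young cells, against 15.1% in the middle and 14.8% on the centromere side. Tiles of 80% or over made up 11.3% on the telomere side, 12.2% in the middle and 15.4% on the centromere side.

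The lower level of the telomere side was also seen within classes of CpG density and in tiles with and without genes. Density here is the count of listed positions, which can miss CpGs: the promoter window of Alkbh8 has 5 CpGs and 3 positions. Levels of the density classes are means over all tiles of a side, with no step by chromosome. The telomere side held 144 positions per tile on average (SD 62.5), against 137 in the middle (SD 13.3) and 129 on the centromere side (SD 48.1). In each of 5 density classes its young level was below that of the middle: 62.4% against 63.7% in tiles of 20 to 39 positions, 67.6% against 68.2% at 40 to 79, 68.6% against 71.1% from 80 to under 160, 63.4% against 66.8% from 160 to under 320 and 38.6% against 42.3% at 320 and over. With the middle weighted to the density of each chromosome's telomere window, the difference was -2.15 points, with 15 of 19 chromosomes lower. In tiles that overlap no protein-coding gene the telomere side stood at 65.4% against 67.7% in the middle, and in tiles that overlap one at 62.9% against 66.8%. The centromere side stood at 64.4%, 68.9%, 71.4%, 66.4% and 41.0% in the same 5 classes, above the middle in the first 3 and below it in the last 2.

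**Figure D2:**
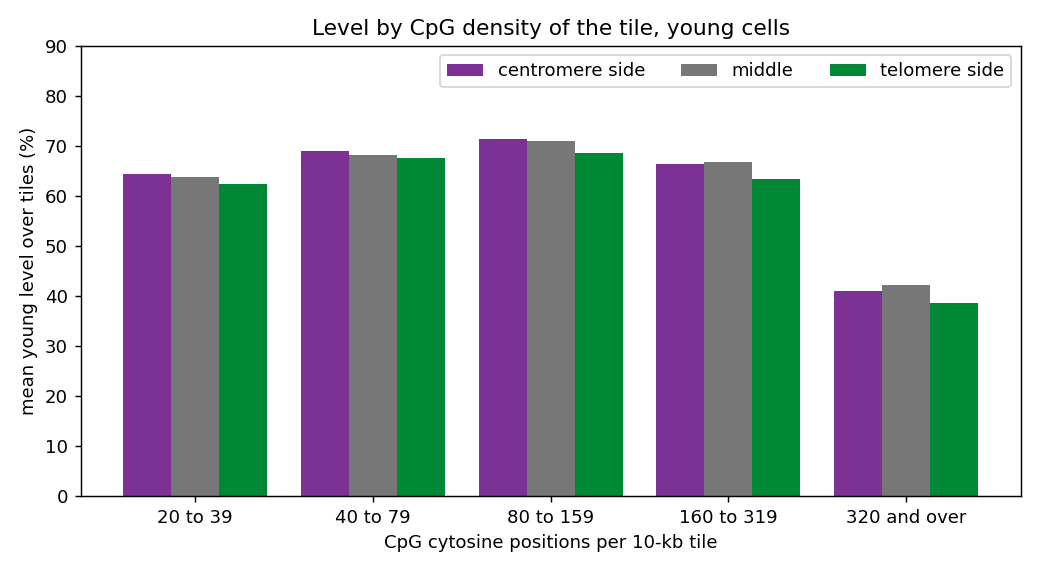
Mean young level in percent (y axis) over tiles of 10 kb by the number of CpG cytosine positions in the tile (x axis), 1 bar for each side and for the middle. The telomere side is the lowest bar in each of the 5 classes, and all bars drop to between 38.6% and 42.3% in the densest class.

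The lower level did not begin at the very end. In steps of 250 kb, the outermost step of the telomere side stood at 67.9% ± 3.66 in young cells, close to the middle, with 8 of 19 chromosomes below their own middle. The next step stood at 64.2%, and the steps to 3 Mb ranged from 62.7% at 2250 to 2500 kb, where 18 of 19 chromosomes were below their middle, to 65.8% at 2000 to 2250 kb. The edge of the window was not a boundary: the step just inside stood at 64.5% and the one just outside at 65.4%. In steps of 1 Mb the level rose to 66.1% at 5 to 6 Mb and 67.5% at 6 to 7 Mb. Lower steps also lay deeper in: from 14 to 20 Mb the telomere side ranged from 65.3% to 66.7%, with 9 to 13 chromosomes below their middle in a step. The centromere side stood at 65.4% at 16 to 17 Mb, with 16 of 19 below. On the centromere side the outermost step had 68.7% ± 3.15 and the other steps to 3 Mb lay between 66.4% and 68.2%.

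**Figure D3:**
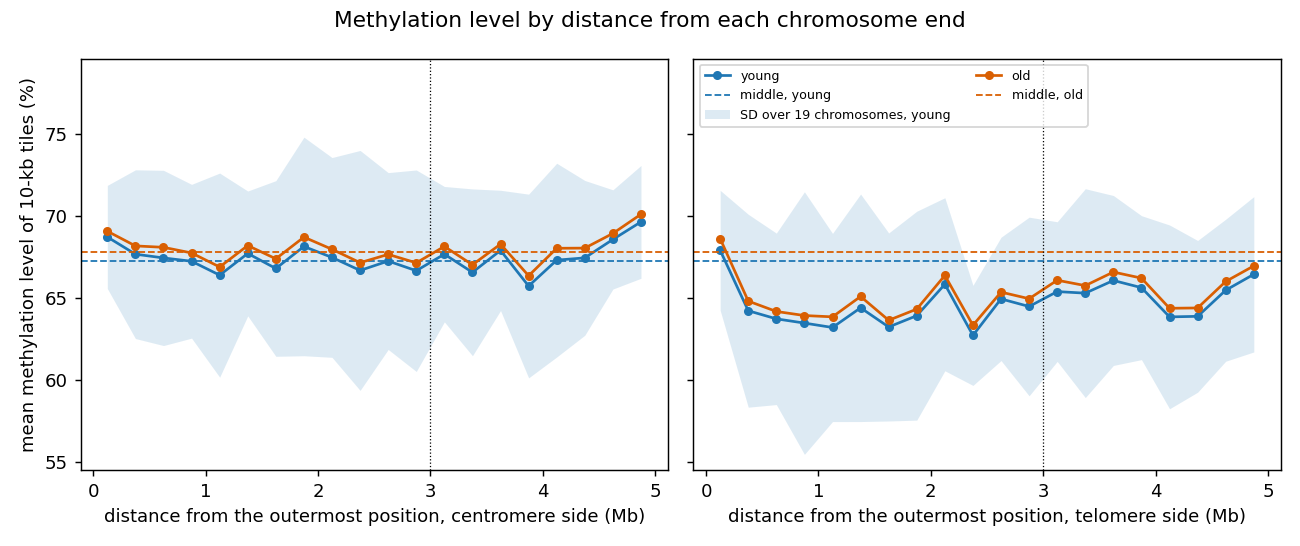
Mean level of 10-kb tiles in percent (y axis) in steps of 250 kb by distance in Mb from the outermost position (x axis), centromere side on the left and telomere side on the right, young and old; dashed lines are the middle, the band is the SD over 19 chromosomes for young cells and the dotted line marks 3 Mb. The telomere curve runs below the middle from the second step on, and the old curve lies above the young one in every step.

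Single chromosomes differed widely. Over the 19 telomere windows the young level had a lowest value of 58.0% on chromosome 15, a median of 64.4% and a highest value of 69.4% on chromosome 5. Chromosomes 4 (59.0%) and 2 (59.4%) followed chromosome 15; all 3 hold more than 20 protein-coding genes per Mb in the window (28.3, 23.3 and 21 per Mb on chromosomes 15, 4 and 2), against a mean of 8.48 per Mb in the middle. Gene-dense telomere windows were not always that low: chromosome 10, with 43 genes per Mb, stood at 64.4% and chromosome 11, with 28 per Mb, at 62.9%. Chromosome 17 had 1 gene per Mb in its telomere window and 54.9 positions per tile and still stood at 62.8%, below its middle. Over the centromere windows the lowest value was 58.6% on chromosome 14, the median 69.2% and the highest 72.0% on chromosome 15. Chromosome 15 thus had the highest centromere side and the lowest telomere side. Across the 19 chromosomes the young difference from the middle had a Pearson r of -0.539 with genes per Mb on the telomere side and of -0.617 on the centromere side (Spearman -0.504 and -0.422), as a description of windows from the same animals. It was weaker with the percent of tiles that overlap a gene (-0.162 on the telomere side and -0.320 on the centromere side) and with positions per tile (-0.380 and -0.158).

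On chromosome 15 the low telomere side held the Hoxc cluster, which sets position along the body axis, and keratin genes. The 500-kb step at 500 to 1000 kb from the end had 47.1% (young) and 47.8% (old), with 43.6% of positions under 20%. From the end inward, the other steps of the window stood at 64.9%, 59.9%, 57.0%, 61.25% and 58.8% in young cells. All were below the 67.5% of the chromosome's middle. The 9 Hoxc genes averaged 23.1% over their spans in young and 22.7% in old cells, from 5.56% in Hoxc11 to 41.1% in Hoxc4, and 7 of 9 had a less methylated end under 20%. Their span level was close to that of the 30 other Hox genes, at 20.1%. The 26 Krt genes of this window, which encode the filament proteins of epithelia, averaged 60.1% in young and 60.8% in old cells, and 4 of them had a less methylated end under 20%. Hoxc11 and Hoxc4 were named after their values were seen, as the lowest and the highest.

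The centromere side of chromosome 14 was the lowest end on that side (58.6% young, 58.9% old), and 33.4% of its positions were under 20%, against 12.6% on average for that side. Only 179 of its tiles reached 20 positions, with 62.1 positions per tile. It held 42 unnamed predicted genes (Gm symbols), and of the 34 with a level 15 stood under 30% and 15 over 50% in young cells. Gm2956 was the lowest (6.97% young, 7.27% old) and Gm3187 the highest at 78.5% and 69.7%, over 15 positions; both were named after their values were seen. Predicted genes that lie side by side like these can be near-identical copies, and no source used here says how reads that fit several copies were treated, so their levels are uncertain.

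Receptor genes of smell, which act mainly in sensory neurons, were methylated over their spans. On average they stood near (Olfr) or below (Vmn1r) the tiles of their windows. The telomere window of chromosome 10 held 58 olfactory receptor genes (Olfr), and the 18 with a level over the span averaged 65.1% in young and 65.4% in old cells, against 68.3% and 68.9% for 634 Olfr genes of the middle. Tiles of that chromosome 10 window averaged 64.4% and 64.8%. None of 37 Olfr genes there had a less methylated end under 20%. Pheromone receptor genes (Vmn1r) of the chromosome 7 centromere window averaged 58.1% and 58.4% over 5 spans, against 61.8% and 62.2% for its tiles. Zinc finger genes (Zfp) were methylated over their spans at both ends, at 56.2% for 12 genes on the centromere side and 53.2% for 10 on the telomere side, against 60.2% in the middle, with low ends in 12 of 12 and 7 of 10. Ribosomal protein genes were low over their spans at the ends (24.2% over 5 genes and 11.98% over 3 genes) as in the middle (26.6% over 77 genes). Of the end windows, only those on the telomere side held keratin or Hox genes, and neither side held a defensin gene.

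Gene spans with at least 10 positions averaged 53.3% in young cells on the telomere side (674 of 720 protein-coding genes), 54.9% on the centromere side (591 of 608) and 57.4% in the middle (18350 of 19232). These are means over genes, with no step by chromosome. On the centromere side they include 34 spans of the uncertain predicted genes of chromosome 14, at 42.9%. Outside the families (receptor, Zfp, Hox, Krt, ribosomal, defensin and Gm genes), spans averaged 53.35%, 55.9% and 57.0% in the same order. Less methylated gene ends under 20% made up 61.3% on the telomere side, 67.0% on the centromere side and 60.7% in the middle. These shares lay closer together for genes outside the families, at 67.5%, 68.7% and 66.0%. Gene density was 12.6 per Mb on the telomere side (SD 11.4), 10.7 on the centromere side (SD 9.69) and 8.48 in the middle. RefSeq promoter windows had another order, with the centromere side lowest: 630 with at least 5 positions stood at 19.9% in young cells there, 789 at 21.1% on the telomere side and 21694 at 24.9% in the middle. Promoters with 10 or more CpGs stood at 5.86% on the centromere side, 7.64% on the telomere side and 7.44% in the middle. They were 424 of the 630, 511 of the 789 and 12828 of the 21694 windows. Among promoters with fewer CpGs the telomere side was the lowest, at 45.96%, against 48.84% on the centromere side and 50.15% in the middle. The letters TTAGGG or CCCTAA, the telomere repeat unit on either strand with no overlap between the pair, occurred in 9.83% of promoter windows on the telomere side, 10.7% on the centromere side and 10.6% in the middle.

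The genes nearest to the ends had both low and methylated gene ends, though not always at the level of the printed promoter. The less methylated end of Fam171a1 stood at 38.3% in young cells, against 2.08% in its printed window. That of Csf2ra stood at 44.7%, against 71.9%. Of the 19 genes nearest to the smallest position, 17 had a level at a gene end and 11 of these were under 20% in young cells: the cell cycle kinase Cdk6 (6.51% in young and 5.10% in old cells), the insulin receptor Insr (6.60% and 6.90%), the vesicle traffic genes Gdi2 (2.48% and 2.45%) and Rab10 (3.15% and 3.13%), the selenium carrier Selenop (8.10% and 6.56%) and Xkr4 (2.48% and 2.88%) were among them. Samd9l, an interferon-inducible gene, stood at 70.8% and 71.4%. Of the 19 genes nearest to the largest position, 17 had a level and 9 were under 20%: the Wnt secretion factor Wls (9.09% and 8.99%), the complement receptor Cr2 (10.1% and 9.99%), Tmem196 (10.5% and 10.8%) and Fgf14 (16.3% and 13.5%) among them. Mrgprd, a receptor of pain-sensing neurons, stood at 64.9% and 66.1%, and the pheromone receptor Vmn2r129 at 59.1% and 55.3%. These less methylated gene ends were higher in old cells in 10 and lower in 7 genes on the centromere side, and higher in 6 and lower in 11 on the telomere side. Among all genes with a level there, 248 of 572 ends on the centromere side and 307 of 688 on the telomere side were higher. In the middle 8533 of 18332 were. Over the spans, 12 of 16 genes nearest to the smallest position (75%) were higher in old cells. Nearest to the largest position it was 14 of 18 (77.8%), against 72.4% of genes in the middle.

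The lowest tiles of 10 kb were dense in CpGs, with 520 to 1155 positions each. On the centromere side they lay at Kdm2a, a protein that binds unmethylated CpG islands (5.77% in young and 5.94% in old cells), Sox17, an endoderm factor (5.96% and 5.98%), and the acetyltransferase gene Crebbp (6.27% and 6.35%). On the telomere side the lowest was at 124420001 to 124430000 on chromosome 9, 69.9 kb from the last listed position, with 3.40% and 3.67% over 598 positions in LOC108167694. A tile in Bahcc1 on chromosome 11 had 5.02% and 4.63% over 1155 positions, and one 9.09 kb from the Polycomb gene Cbx8 had 6.12% and 5.59%. The highest tiles lay in Cul2 on the centromere side of chromosome 18 (93.6% in young and 92.7% in old cells) and in Depdc1a on the telomere side of chromosome 3 (93.3% and 94.4%).

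Old cells were more methylated than young cells at both ends and in the middle, by nearly the same amount. The difference was 0.513 points on the centromere side (SD 0.149), 0.535 points on the telomere side (SD 0.169) and 0.543 points in the middle (SD 0.0526), and it was above 0 in 19 of 19 chromosomes in each place. The ends minus the middle gave -0.0295 points (SD 0.155) on the centromere side and -0.00812 points (SD 0.159) on the telomere side, both smaller than the spread between chromosomes. Chromosome 9 was the highest on the centromere side (0.813 points) and chromosome 13 on the telomere side (0.804 points), and chromosomes 11 (0.272 points) and 15 (0.325 points) were the lowest. Of the 19 end windows on a side, 6 and 8 lay under the lower quartile of the middle windows (0.427 points) and 5 and 7 above the upper one (0.639 points), on the centromere and the telomere side. CpG-poor telomere windows had the larger difference: over 19 chromosomes it had a Pearson r of -0.818 with positions per tile (Spearman -0.868), and on the centromere side of -0.480 (Spearman -0.514), again as a description.

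**Figure D4:**
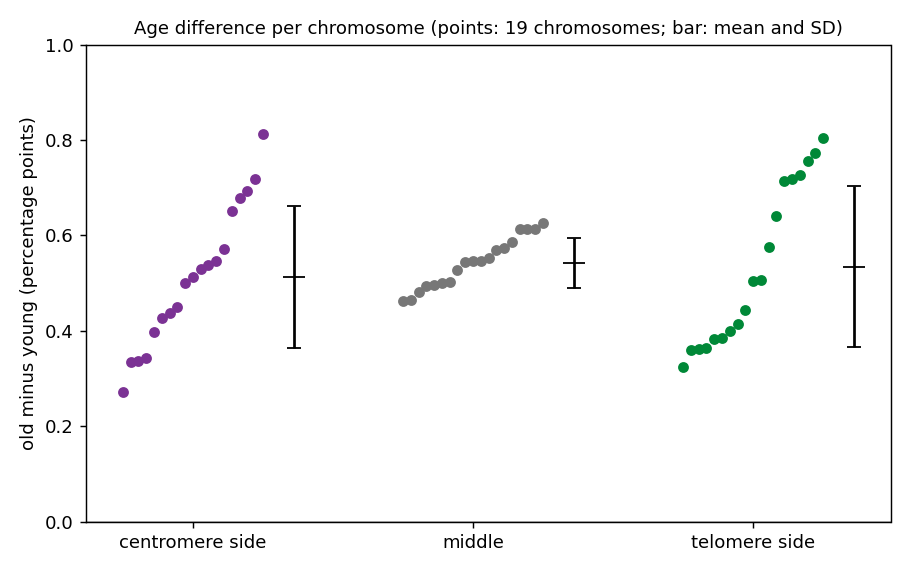
Old minus young level in percentage points (y axis) for each of 19 chromosomes on the centromere side, in the middle and on the telomere side; points are chromosomes in rising order and the bar gives their mean and SD. All points lie above 0, and the means are 0.513, 0.543 and 0.535 points.

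No tile at the ends passed the test of old against young. A tile's p was the median p of its positions, from the authors' table, times 2, with Benjamini-Hochberg adjustment over all 236078 tiles; 0 of 5518 and 0 of 5606 were called (smallest adjusted p 1 on each side), where 0% of all tiles were called. Before adjustment 0 tiles at the ends and 3 in the middle had a p under 0.05 (0.00127% of all tiles). In tiles of 1 kb with at least 10 positions 0 were called at the ends, against 8.33e-05% of all; before adjustment 29 on the centromere side (16 higher and 13 lower in old cells) and 26 on the telomere side (19 higher and 7 lower) had a p under 0.05, which is 0.110% and 0.0895%, against 0.102% of all. The median asks that most positions of a tile shift, so these counts of 0 do not mean equal levels.

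The tiles with the smallest p named here, none past the threshold, differed by up to 9.76 points. On the centromere side the first was 560.8 kb from Akr1e1 on chromosome 13, at 68.9% in young and 77.8% in old cells (p 0.128 before and 1 after adjustment), followed by one 14.1 kb from Zfhx4 (77.3% and 85.2%); tiles with lower values in old cells included one in Camk2b, a calcium-dependent kinase gene (72.0% and 66.6%), and one 29.7 kb from Xkr4 (66.3% and 57.5%). On the telomere side the first lay in Ccdc7a on chromosome 8 (55.7% and 64.1%, p 0.224 before and 1 after adjustment). Others were 12.6 kb from Vmn2r87 (69.5% and 79.3%) and, lower in old cells, in Fgf14 (55.5% and 48.8%). Differences of at least 5 points in either direction were seen in 3.10% of centromere tiles (127 higher and 44 lower in old cells), 3.16% of telomere tiles (134 and 43) and 2.85% of middle tiles.

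The share of single positions past the authors' FDR of 0.05 depended on how the ends were summed. By the FDR in the authors' deposited table, 1729 of 721554 positions on the centromere side (0.240%) and 1833 of 810901 on the telomere side (0.226%) passed, against 0.233% of all positions. Averaged over chromosomes, the ends had 27.7 (centromere side, SD 13.1) and 30.2 (telomere side, SD 21.1) calls per 10000 positions, against 23.1 in the middle (SD 3.58). On the telomere side the pooled share was 0.321% in windows of 1 Mb and 0.183% in windows of 5 Mb, and on the centromere side 0.237% and 0.267%. Higher in old cells were 930 and 1022 of them, with the background at 0.130% of positions for higher and 0.103% for lower calls. Their median differences were 18.96 points upward and -18.8 points downward on the centromere side and 18.2 and -18.9 points on the telomere side. The rate varied with CpG density: the telomere window of chromosome 17, with 54.9 positions per tile, had 80.6 calls per 10000 positions, and that of chromosome 4, with 277.9 per tile, had 5.33. Of the calls at the ends, 91.7% (centromere side) and 91.3% (telomere side) had a phi of 0.0438 in young or 0.0434 in old cells, the commonest value of each age, against 91.7% of calls in the middle. Only 23.4% of positions on the centromere side, 21.5% on the telomere side and 23.7% in the middle had such a phi. Without them 0.0259%, 0.0251% and 0.0253% of positions passed; the part of phi in the calls was not tested.

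Mean dispersion at the ends differed from the middle by less than the spread between chromosomes. The outermost centromere sequence stood higher on most chromosomes, on average by less than its own SD. Phi, which the authors did not define in the sources used here, averaged 0.0479 on the centromere side, 0.0483 on the telomere side and 0.0479 in the middle in young cells, and 0.0483, 0.0488 and 0.0484 in old cells. The telomere side was higher than its own middle on 9 of 19 chromosomes in young and 10 in old cells; with the middle matched on CpG density it was higher on 13 and 12. In windows of 1 Mb the young difference turned, to -0.000545, with 6 of 19 chromosomes above their middle. In the outermost 250 kb of the centromere side phi was 0.0502 in young (SD 0.00471) and 0.0506 in old cells (SD 0.00504). It was above the chromosome's own middle on 15 of 19 chromosomes in young and 14 in old cells. In the outermost 250 kb of the telomere side it was 0.0472 and 0.0474, above the middle on 4 and 3 chromosomes. Positions per tile were 116 and 104 in these steps, so the lower CpG density was on the telomere side; its part in the dispersion was not tested. From there phi on the telomere side rose with distance to 0.0497 in young and 0.0504 in old cells at 2750 to 3000 kb, where positions per tile were 185.

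**Figure D5:**
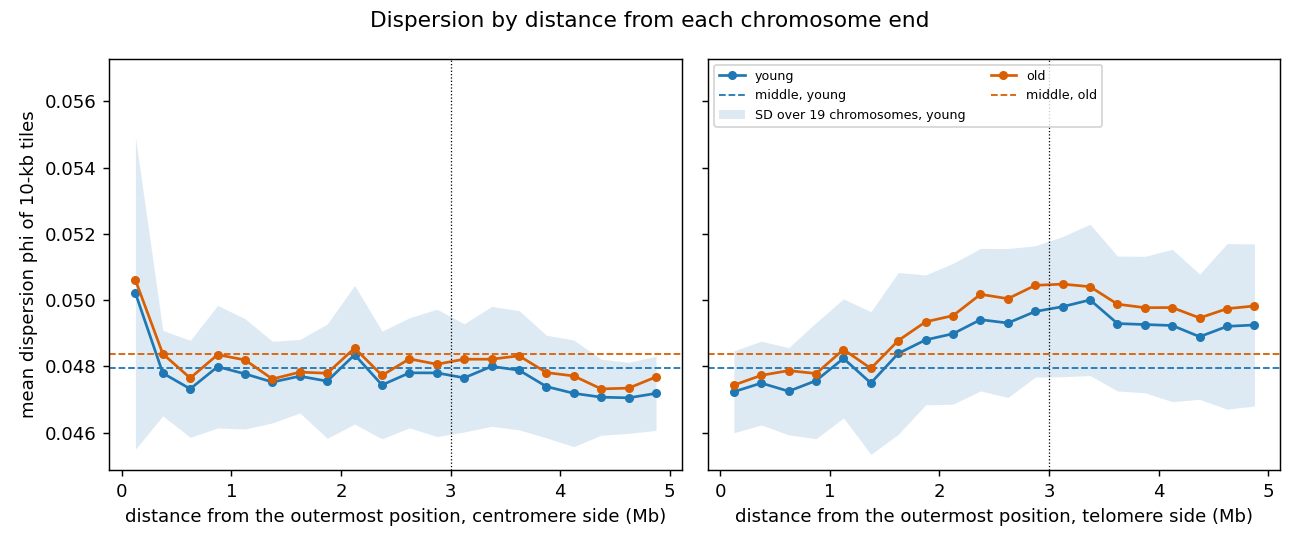
Mean phi of 10-kb tiles (y axis) in steps of 250 kb by distance in Mb from the outermost position (x axis), centromere side on the left and telomere side on the right, young and old; dashed lines are the middle, the band is the SD over 19 chromosomes for young cells and the dotted line marks 3 Mb. The first centromere step stands at 0.0502 in young cells, and the telomere curve rises from 0.0472 to 0.0497 at 3 Mb.

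The tiles with the highest mean phi of the ends lay on chromosome 11. Of the 12 centromere tiles with a mean phi over 0.08, 7 followed each other between 3130001 and 3200000 on chromosome 11, at Sfi1, a gene for a centrosome protein. Whether reads here are shared with near-identical copies was not tested, so these values are uncertain. Levels of these tiles ran from 49.9% to 69.6% in young and from 50.8% to 70.7% in old cells, and phi from 0.103 to 0.136 in young and from 0.105 to 0.136 in old cells, so the ranges of both ages overlapped. The less methylated end of Sfi1 stood at 4.25% and 4.57%. The outermost 250 kb of chromosome 11 had a phi of 0.0677 in young and 0.0684 in old cells. Without chromosome 11 the mean of that step was 0.0492 in young (SD 0.00214) and 0.0496 in old cells (SD 0.00270). Of the 18 chromosomes, 14 in young and 13 in old cells were above their middle. Tiles over 0.08 made up 0.217% of the centromere side, 0.0357% of the telomere side (2 tiles) and 0.0249% of the middle.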

How the data were processed

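DNA methylation of 4 young and 4 old animals was read by whole-genome bisulfite sequencing; the submitters' processing notes name Trim Galore, Bismark and edgeR, and builds mm10 and GRCm38, without roles or versions. Per the file headers, the authors give the level of each age group (mu), here a fraction shown as percent; runs of neighbours share 1 value, so positions are not independent. The dispersion (phi) is a score deposited by the authors, and the p-value and FDR per position are the authors' own, per the file headers. With no value per animal in the table used here, no test over animals was run.

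Positions in the table count from 0: after adding 1, 100% of 760777 positions inside RefSeq promoter windows fell on a CpG, against 55.3% without, so coordinates here are 1 higher than in the table. Tile means were averaged per chromosome with equal weight, then over 19 chromosomes. Classes of tiles by density or level, and shares of tiles, were instead taken over all tiles of a side. Gene spans came from RefSeq GRCm38.p6 (20560 protein-coding genes; 105 with coordinates before the first position were left out), gene ends were windows of 1000 bp on each side of an end, and at least 10 positions were required. A gene belonged to a window by its midpoint. Named genes are those nearest to each end; tiles are those with the smallest p or the lowest, highest or most dispersed values; members of families, lists and windows were chosen with earlier results of these data known. Promoters with unknown bases were not printed, and none from chromosome 18 was used. Middle windows of 3 Mb, 1-Mb steps and leaving out chromosomes were added after seeing the data. The tile test was tested on simulated p-values for chromosome 19 only, with every position of a changed tile shifted. Shifts were set in standard errors, so whether it finds differences of the size seen here was not tested. Alternatives covered window length, position minimum, weighting, the choice of middle, CpG density, dispersion and genes. Python 3.11.15, numpy 2.4.6 and pandas 2.3.3 were used.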

Additional observations from a re-analysis of the deposited data

How the results depend on the processing

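No paired analysis was possible because the table holds 1 value per age group and position, and for the same reason no animal could be left out. Of 89 values of level, age difference and dispersion under the alternatives, 87 moved by less than the SD over chromosomes. That is no sign of stability: the SD is no replicate error, it exceeds the telomere level difference itself, and some values could not move, such as the age difference of an end when the middle is chosen otherwise. The young level of the telomere side minus the middle ranged from -3.55 points (central 6 Mb as the middle) to -2.15 points (middle matched on CpG density), and from -3.23 points without chromosome 5 to -2.53 points without chromosome 15. That of the centromere side ranged from -0.501 to 1.19 points and so changed sign, as it did without chromosome 5 (-0.139 points). Without chromosome 14, whose centromere window was the lowest, it was 0.668 points. Dispersion differences changed direction too: the telomere side minus the middle ran from -0.000545 (windows of 1 Mb, 6 of 19 chromosomes above) to 0.000823 (windows of 5 Mb, 14 above) in young cells and from -0.000656 to 0.000928 in old cells, and the centromere side from -0.000480 to 0.000400 and from -0.000657 to 0.000358. The age difference of the middle moved from 0.543 points to 0.602 points with the central 6 Mb and to 0.472 points with positions weighted equally; the difference between middle and ends was not tested. With an FDR under 0.01, 0.157% of positions on the centromere side, 0.149% on the telomere side and 0.154% in the middle passed. Leaving out positions with the commonest phi gave 0.0259%, 0.0251% and 0.0253%. A stricter FDR keeps fewer calls by construction. Leaving out a phi removes positions as well as calls, so the share was not bound to fall. Tiles called at the ends stayed at 0 in the 4 alternatives run for them.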
